A study of Homo sapiens with 12 samples.

Results

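Of 37 listed genes of sugar breakdown and of the hypoxia response, 35 had a usable probe among 12566 genes measured in the human colorectal cancer line Caco-2. The genes were taken by symbol from a list chosen with earlier results of these data known. Each was read from its brightest probe detected on at least 3 of the 12 arrays. They comprised 16 glycolytic enzymes, 6 sugar and lactate carriers and flux regulators, 13 targets of the hypoxia-inducible factors (HIF) and the 2 HIF alpha subunits HIF1A and EPAS1. The lactate carrier SLC16A3 and the carbonic anhydrase CA9 were not analysed here.

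The study asked what follows from silencing LRH-1, a nuclear receptor whose gene is NR5A2, in colon cancer cells. The arrays formed 4 groups of 3. They were a line whose label names a short hairpin RNA (shRNA) to LRH-1 under a switchable promoter, with and without doxycycline, and a control line, with and without doxycycline. Doxycycline, the antibiotic that switches the vector on, was given at 5 µg/ml, and RNA was taken 96 hours later. All groups were the same Caco-2 parent, and both lines saw the drug, so a change in the control line was measured as well. Sample titles call the control line native, while its genotype label calls it a non-silencing vector control, and the labels do not settle which it was. Hairpins against more than 1 sequence were made, and the labels do not say which one the arrays hold. Nothing says that the arrays of a group came from separate cultures. The p-values then reflect the spread among these arrays alone, and that spread may be technical.

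Glycolysis splits glucose into pyruvate in the cytosol, starting with phosphorylation by a hexokinase, and lactate dehydrogenase turns pyruvate into lactate. HIF is a pair of an oxygen-regulated alpha subunit and a constant beta subunit. When oxygen is low the prolyl hydroxylases no longer mark the alpha subunit for destruction, and HIF then binds short sites in DNA and raises many glycolytic enzymes along with genes of mitophagy, collagen hydroxylation and angiogenesis. Alpha subunits are controlled largely at the protein level, which arrays of RNA do not measure.

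Median raw bead signal lay between 251 and 386 over the 12 arrays, 41.2% to 44.7% of probes were detected, and arrays of a group correlated at 0.987 to 0.993. NR5A2 itself, on a log2 scale of normalized bead signal used throughout, read 10.59, 10.59 and 10.84 in the shRNA-labelled line with doxycycline and 10.13, 10.13 and 10.24 without it. It read 11.18, 11.00 and 10.97 in the control line with doxycycline and 10.10, 10.12 and 10.27 without it. The targeted transcript was higher with doxycycline in both lines, by 0.50 among shRNA-labelled arrays (adjusted p = 0.00995) and 0.89 among control arrays (adjusted p = 0.000384). With the drug in both, NR5A2 was lower by 0.38 on the shRNA-labelled arrays than on the control arrays (-0.38, adjusted p = 0.0216), and without it the difference was 0.0044 (adjusted p = 0.983). The responses of NR5A2 differed by -0.39 (adjusted p = 0.231, unadjusted p = 0.0236). The label of the shRNA-labelled line is used here only as a name. Of 12 intestinal epithelium markers with a probe, 9 were detected on all 12 arrays and CDX1 and FABP1 on 0. Of 4 leukocyte markers CD14 and LYZ were detected on all 12 arrays, CD3E on 1 and PTPRC on 0, and of 3 endothelial markers PECAM1 was detected on all 12 and CDH5 and VWF on 0. Of 9 fibroblast and muscle markers COL1A1, LUM and PDGFRB were detected on all 12, DCN on 4, COL3A1 and ACTA2 on 1 each, and COL1A2, DES and THY1 on 0. The summed log2 level of the fibroblast and muscle markers was 12.15 to 12.25 on the shRNA-labelled arrays with doxycycline and 11.65 to 11.74 without it, against 12.50 to 12.74 on the control arrays with it and 11.84 to 11.97 without it. That sum was higher with the drug in both lines and lower in the shRNA-labelled line in both states, with no overlap. The leukocyte sum was 12.23 to 12.51 on the shRNA-labelled arrays with doxycycline and 11.99 to 12.10 without it, against 12.23 to 12.49 and 12.31 to 12.52 on the control arrays with and without it. For the endothelial markers it was 8.80 to 9.15 on the shRNA-labelled arrays with doxycycline and 9.19 to 9.38 without it, against 9.04 to 9.46 and 8.90 to 8.96 on the control arrays with and without it. Both of these sums overlapped between the lines with the drug and stood apart without it. The intestinal epithelium sum was the highest of the 4 on every array. It lay between 16.96 and 17.10 over all 12 arrays and overlapped between the lines in both states. The part of these markers in the differences below was not tested. In such bulk samples fewer cells of a kind and less RNA per cell cannot be told apart.

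Promoter letters are shown for 6 of the members that differed between the lines and whose 300-base window held a HIF core motif. The window ran from 250 bases before to 50 after the transcript start. GPI, ALDOA, ALDOC, PKM, ADM and EPAS1 met the same condition and are not shown. The sequences are RefSeq's for build GRCh38.p14, which had a window for 33 of the 37 genes. VEGFA, NDRG1, BNIP3L and SLC2A3 had none. Searched on both strands were ACGTG and GCGTG. Capitals mark matches, read as CACGT and CACGC where the match lies on the opposite strand, and CACGTG is ACGTG on both strands at once.
HK2, chr2:74834057-74834098, plus strand: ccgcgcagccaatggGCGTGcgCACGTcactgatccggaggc
ENO2, chr12:6914447-6914481, plus strand: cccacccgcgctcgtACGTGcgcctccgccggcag
ANKRD37, chr4:185396664-185396717, plus strand: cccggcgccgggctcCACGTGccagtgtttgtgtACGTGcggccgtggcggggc
BNIP3, chr10:131982008-131982081, minus strand: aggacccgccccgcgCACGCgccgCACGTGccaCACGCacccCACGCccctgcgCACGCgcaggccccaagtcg
P4HA1, chr10:73096933-73096967, minus strand: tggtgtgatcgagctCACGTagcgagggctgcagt
KDM3A, chr2:86441330-86441364, plus strand: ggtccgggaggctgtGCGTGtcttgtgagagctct

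These stretches lie before the start site in all 6 genes, from 70 to 29 bases before it in HK2 and from 41 to 7 bases before it in KDM3A. The BNIP3 stretch held 5 separate matches in 74 bases. Either motif was present in 23 of the 33 windows (69.7%), against 48.4% of all 27305 promoters of that length. ACGTG alone was in 39.4% of the windows against 21.6% of all promoters, and GCGTG in 45.5% against 36.3%. Among members higher in the shRNA-labelled line with doxycycline the share was 10 of 14 windows, and among members with no difference past the threshold it was 11 of 16. These shares lay close together, and a match is a description of letters only.

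The clearest pattern was between the lines. With doxycycline in both, 15 of the 35 genes were higher in the shRNA-labelled line than in the control line and 1, ADM, was lower, at a Benjamini-Hochberg adjusted limma p under 0.05. Over all 12566 genes 10.9% were higher and 11.8% lower in that comparison. As the list was chosen with earlier results known, the counts beside these shares are a description and no independent test. The higher genes included 7 of the 16 glycolytic enzymes and 6 of the 12 measured HIF targets, with a median difference of 0.30 for the enzymes and 0.52 for the targets on the log2 scale. Over the 11 targets detected in both lines the target median was 0.61. The median over all genes was -0.0003. All 3 arrays of the shRNA-labelled line lay above all 3 of the control line for 20 members and below them for 1, against 18.9% and 20.5% of all genes.

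**Figure D1:**
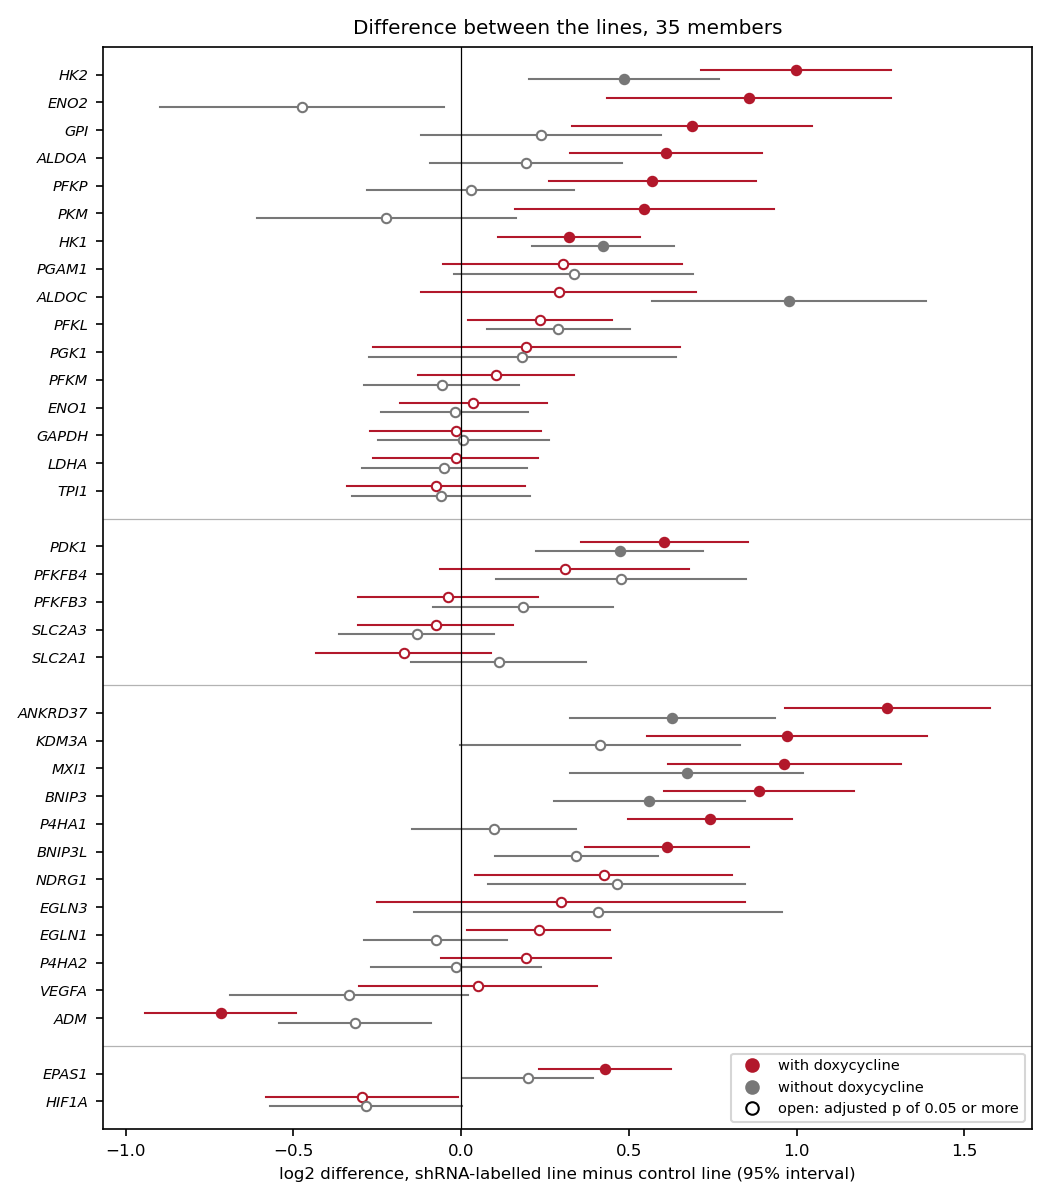
Log2 difference, shRNA-labelled line minus control line, for the 35 members (points, with 95% intervals from limma), with doxycycline in red and without it in grey. Rows are grouped from top to bottom as glycolytic enzymes, carriers and flux regulators, HIF targets and HIF alpha subunits, and filled points have an adjusted p under 0.05, 15 of them to the right with doxycycline and 7 without it. EGLN3, and PDK1 with doxycycline, are drawn at their fitted values although the control arrays did not detect them.

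At the entry step, the hexokinase HK2, the inducible isozyme bound to mitochondria, gave the largest difference among the enzymes. It read 12.43, 12.41 and 12.50 in the shRNA-labelled line with doxycycline and 11.94, 12.03 and 12.19 without it. In the control line it read 11.48, 11.36 and 11.51 with doxycycline and 11.26, 11.78 and 11.65 without it. Every array of the shRNA-labelled line lay above every array of the control line, whatever the drug. HK2 was 2.00-fold higher with doxycycline (log2 difference 1.00, SE 0.13, adjusted p = 0.000257) and 1.40-fold higher without it (0.49, SE 0.13, adjusted p = 0.0261), the second call being lost in 6 of 23 alternative settings. A dimmer second HK2 probe differed by 0.84 with doxycycline and by 0.10 without it.

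HK1, the constitutive hexokinase, was also higher in the shRNA-labelled line. It read 10.90, 10.76 and 10.97 in the shRNA-labelled line with doxycycline and 11.15, 11.31 and 11.20 without it. Its control-line signal was 10.68, 10.55 and 10.44 with doxycycline and 10.81, 10.82 and 10.77 without it. In each line all 3 arrays with the drug lay below all 3 without it, and the shRNA-labelled line lay above the control line in both states. The line difference was 0.32 with doxycycline (SE 0.10, adjusted p = 0.0335), a call lost in 8 of 23 alternative settings, and 0.42 without it (SE 0.10, adjusted p = 0.0131). HK1 fell by 0.35 with doxycycline in the shRNA-labelled line (adjusted p = 0.0404), a call lost in 12 of 23 settings, and its change in the control line was -0.24 (adjusted p = 0.117).

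GPI, which turns glucose 6-phosphate into fructose 6-phosphate, read 12.14, 12.26 and 12.26 in the shRNA-labelled line with doxycycline and 11.56, 12.20 and 11.74 without it. The control line gave 11.32, 11.60 and 11.68 with doxycycline and 11.40, 11.78 and 11.60 without it. Only the arrays with doxycycline separated by line. GPI was 1.61-fold higher in the shRNA-labelled line with doxycycline (0.69, SE 0.16, adjusted p = 0.0104), and the difference was 0.24 without it (adjusted p = 0.355).

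Of the 3 phosphofructokinase isozymes, which catalyse the committed step, only PFKP, the platelet type, passed the test. PFKP read 13.11, 13.33 and 12.99 in the shRNA-labelled line with doxycycline and 12.35, 12.68 and 12.57 without it, against 12.42, 12.70 and 12.60 in the control line with doxycycline and 12.36, 12.75 and 12.40 without it. The first of these groups stood above the others, which overlapped each other. PFKP rose by 0.61 with doxycycline in the shRNA-labelled line (SE 0.14, adjusted p = 0.0173) and was 0.57 higher there than in the control line with the drug (adjusted p = 0.0130). Both calls were lost under median scaling and without the second shRNA-labelled array with doxycycline. The liver type PFKL was 0.23 higher with doxycycline and 0.29 higher without it between the lines (adjusted p = 0.107 and 0.0632), and the muscle type PFKM differed by 0.10 and -0.06.

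The aldolases, which cleave fructose bisphosphate, were called in different comparisons. ALDOA read 13.70, 13.95 and 13.97 in the shRNA-labelled line with doxycycline and 13.41, 13.73 and 13.68 without it, against 13.18, 13.42 and 13.19 in the control line with doxycycline and 13.41, 13.59 and 13.25 without it. Its lowest shRNA-labelled array with doxycycline lay above the highest of the control line with the drug, while the groups without the drug overlapped. The difference with doxycycline was 0.61 (SE 0.13, adjusted p = 0.00593) and that without it 0.19 (adjusted p = 0.351). For the brain-type isozyme ALDOC the values in the shRNA-labelled line were 12.11, 12.04 and 12.35 with doxycycline and 11.74, 12.37 and 12.04 without it. Control arrays of ALDOC read 11.62, 12.08 and 11.92 with doxycycline and 10.80, 11.35 and 11.07 without it. The untreated control arrays stood below all others. ALDOC rose by 0.80 with doxycycline in the control line (SE 0.19, adjusted p = 0.0133), and without the drug it was 0.98 higher in the shRNA-labelled line (SE 0.19, adjusted p = 0.00517). A second ALDOA probe gave 0.36 with doxycycline and 0.97 without it between the lines, so the probes of ALDOA did not show one pattern.

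ENO2, the enolase of neurons, had the widest gap between the drug responses among the 35 members. It read 8.83, 9.31 and 9.22 in the shRNA-labelled line with doxycycline and 8.34, 8.48 and 8.10 without it. Control arrays read 8.07, 8.42 and 8.30 with doxycycline and 8.89, 9.09 and 8.36 without it. The drug arrays were the higher ones in the shRNA-labelled line, while the control groups overlapped, their drug arrays being mostly lower. ENO2 rose by 0.81 in the shRNA-labelled line (SE 0.19, adjusted p = 0.0196) and its change was -0.52 in the control line (SE 0.19, adjusted p = 0.0944). The responses differed by 1.33 (SE 0.27), with an adjusted p of 0.0505 that fell below the threshold in 8 of 22 alternative settings. With doxycycline the lines differed by 0.86 (SE 0.19, adjusted p = 0.00793).

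PKM, the pyruvate kinase that ends the pathway, read 12.08, 12.64 and 12.48 in the shRNA-labelled line with doxycycline and 12.17, 12.22 and 12.02 without it. The control line gave 11.88, 11.87 and 11.80 with doxycycline and 12.47, 12.65 and 11.96 without it. The control arrays with doxycycline were the lowest and lay close together. The difference with doxycycline was 0.55 (SE 0.18, adjusted p = 0.0445), and it passed in 11 of 23 alternative settings, fewer than the other 14 higher calls.

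**Figure D2:**
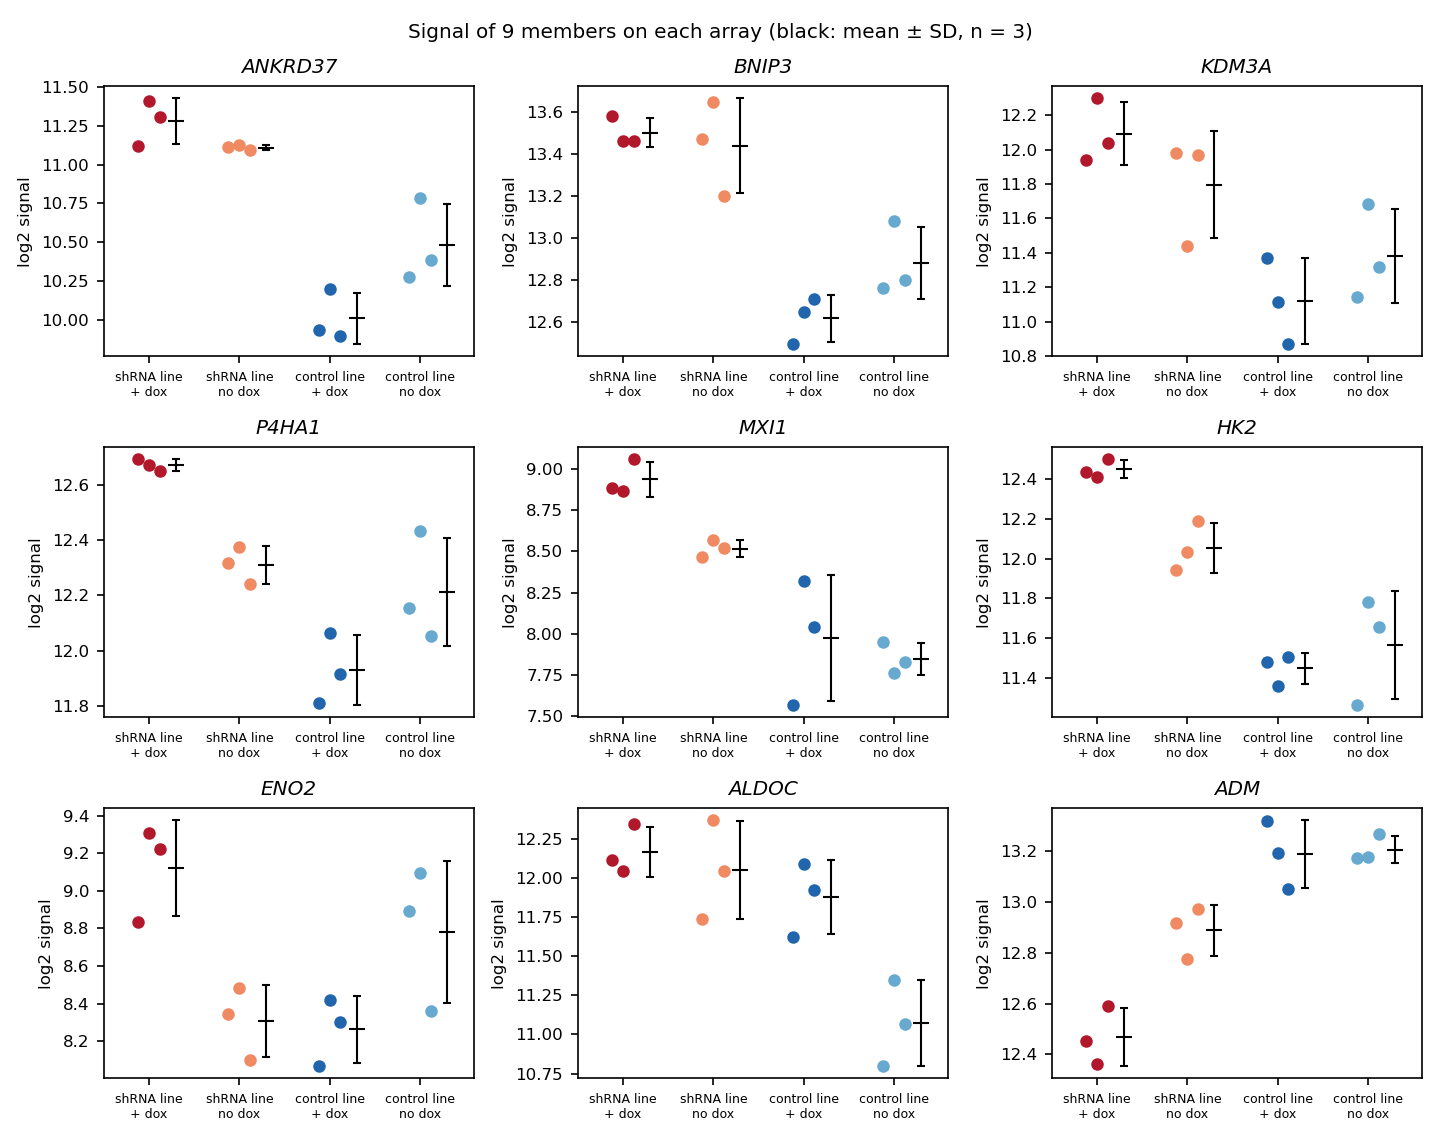
Log2 signal of 9 members on each array (points), with the mean and SD of each group of 3 in black. In each panel the groups run from the shRNA-labelled line with doxycycline on the left to the control line without it on the right, and the axis does not start at 0. ANKRD37, BNIP3, MXI1 and HK2 separate the lines, ADM does so downwards, and ENO2 and ALDOC do not follow the line alone.

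A set of 6 members, namely TPI1, GAPDH, ENO1, LDHA and the glucose carriers SLC2A1 and SLC2A3, were read from probes at 50% or more of the brightest probe on every array. Their 8 probes of this kind gave differences between the lines, with doxycycline, of -0.17 to 0.06, and 0 of 8 passed the test, which was fitted to all 22417 kept probes and passed for 16.5% of them. Probes as bright as these passed in 0.487% of 616 cases over the array, with a median absolute difference of 0.051, against 17% and 0.234 for all other kept probes. Whether signal near the top of the scale limits these differences was not tested.

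Dimmer probes were read as well. LDHA, lactate dehydrogenase A, has a dimmer further probe at 1.21% to 3.15% of the brightest signal. That probe read 9.76, 9.55 and 9.30 in the shRNA-labelled line with doxycycline and 9.52, 9.04 and 9.56 without it, against 8.29, 8.46 and 7.76 in the control line with doxycycline and 8.65, 8.93 and 8.93 without it. All arrays of the shRNA-labelled line lay above all of the control line, by 1.37 with doxycycline (adjusted p = 0.000986) and 0.54 without it (adjusted p = 0.113). The brightest LDHA probe differed by -0.02 and the second by -0.05 with doxycycline. PGK1, phosphoglycerate kinase, has a second probe that read 12.76, 13.11 and 12.73 in the shRNA-labelled line with doxycycline, against 12.28, 12.29 and 12.12 in the control line with doxycycline. That probe was higher by 0.64 (adjusted p = 0.00372), and the brightest PGK1 probe differed by 0.19 (adjusted p = 0.600). Whether these probes see other transcripts was not tested. Over all members with more than 1 kept probe, 12 of 17 further probes had the sign of the brightest probe in this comparison. For HIF1A the 3 probes gave -0.30, -0.22 and 0.41.

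**Figure D3:**
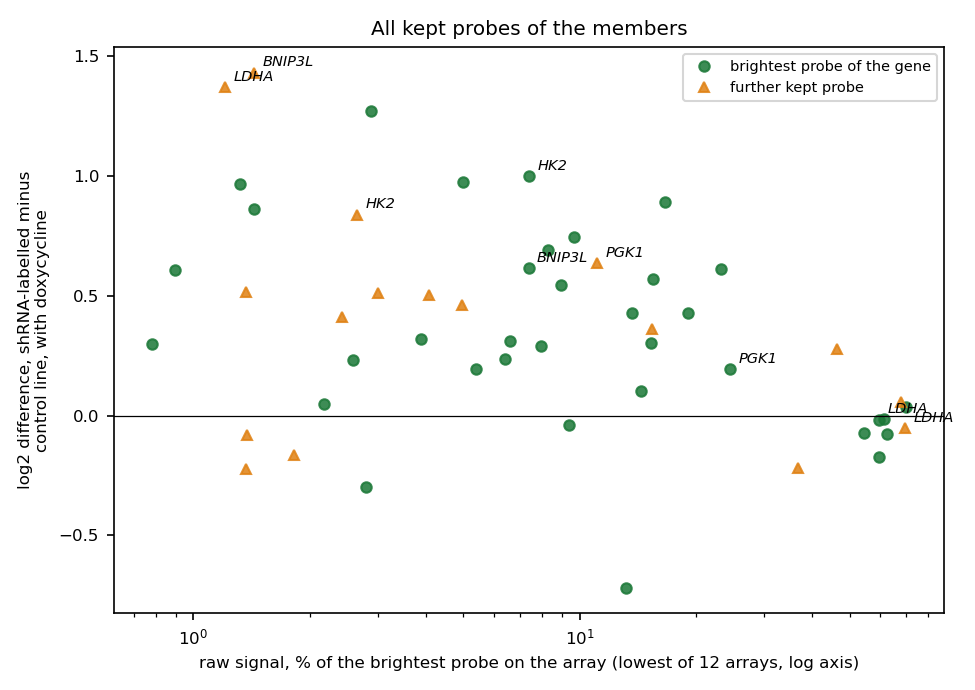
Log2 difference, shRNA-labelled minus control line, with doxycycline, for every kept probe of the members, against the raw signal of the probe as a percentage of the brightest probe on the array (lowest of 12 arrays, log axis). Green circles are the brightest probe of a gene and orange triangles are further probes, and the probes at or above 50% sit within -0.17 and 0.06 of zero.

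The remaining enzymes gave no calls. PGAM1, phosphoglycerate mutase, averaged 12.85 ± 0.27 on the shRNA-labelled arrays with doxycycline, against 12.55 ± 0.07 on the control arrays with it (SD, n = 3 each), and its difference was 0.30 (adjusted p = 0.211). A dimmer PGAM1 probe gave 1.03 without doxycycline (adjusted p = 0.0266), where the brightest gave 0.34. Of the 5 carriers and flux regulators measured, 1, PDK1, passed. PFKFB3 and PFKFB4, which make the phosphofructokinase activator fructose 2,6-bisphosphate, differed between the lines with doxycycline by -0.04 and 0.31.

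PDK1, a kinase that holds pyruvate back from the mitochondria by switching off pyruvate dehydrogenase, was dim. It read 7.09, 7.01 and 6.93 in the shRNA-labelled line with doxycycline and 6.84, 7.15 and 7.16 without it. Its control-line values were 6.44, 6.36 and 6.40 with doxycycline, where it was detected on 0 of 3 arrays, and 6.57, 6.43 and 6.73 without it, where it was detected on 2 of 3. It was at least 1.47-fold higher in the shRNA-labelled line with doxycycline (adjusted p = 0.00261), a bound set by the lowest detected signal. The call was lost without background correction. Without doxycycline the difference was 0.47 (SE 0.11, adjusted p = 0.0163), lost in 9 of 22 settings.

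Among the HIF targets ANKRD37, a small ankyrin-repeat protein known as a sensitive HIF-1 target, differed most. It read 11.12, 11.41 and 11.31 in the shRNA-labelled line with doxycycline and 11.11, 11.12 and 11.09 without it. In the control line it read 9.93, 10.20 and 9.89 with doxycycline and 10.28, 10.78 and 10.38 without it. The lines did not overlap in either state, and in the control line the 3 drug arrays were the lowest. ANKRD37 was 2.41-fold higher in the shRNA-labelled line with doxycycline (1.27, SE 0.14, adjusted p = 8.15e-05) and 1.55-fold higher without it (0.63, SE 0.14, adjusted p = 0.0112). It fell by 0.47 with doxycycline in the control line (adjusted p = 0.0400), a call lost in 11 of 23 settings, and changed by 0.17 in the shRNA-labelled line. The promoter stretch shown above holds 2 separate matches.

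The mitophagy receptors BNIP3 and BNIP3L were both higher in the shRNA-labelled line with doxycycline. BNIP3 read 13.58, 13.46 and 13.46 in the shRNA-labelled line with doxycycline and 13.47, 13.65 and 13.20 without it, against 12.49, 12.64 and 12.71 in the control line with doxycycline and 12.76, 13.08 and 12.80 without it. The lines stood apart in both states, with a difference of 0.89 with doxycycline (SE 0.13, adjusted p = 0.000581) and 0.56 without it (adjusted p = 0.0139). BNIP3L read 12.16, 12.12 and 12.12 in the shRNA-labelled line with doxycycline and 12.09, 12.27 and 11.94 without it, against 11.43, 11.62 and 11.50 in the control line with doxycycline and 11.68, 11.93 and 11.66 without it. Its lines also stood apart with doxycycline, by 0.61 (SE 0.11, adjusted p = 0.00211). Without it the lowest shRNA-labelled array, 11.94, barely cleared the highest control array, 11.93, and the difference of 0.34 was not called (adjusted p = 0.0560). A second BNIP3L probe gave 1.43 with doxycycline in the fit over all probes.

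P4HA1, a subunit of the enzyme that hydroxylates prolines of collagen, read 12.69, 12.67 and 12.65 in the shRNA-labelled line with doxycycline and 12.32, 12.38 and 12.24 without it. Against these, the control line read 11.81, 12.06 and 11.92 with doxycycline and 12.16, 12.43 and 12.05 without it. With the drug the lines were clearly apart, and without it they overlapped. The difference was 0.74 with doxycycline (SE 0.11, adjusted p = 0.000681) and 0.10 without it (adjusted p = 0.601). The responses of the lines differed by 0.65 (SE 0.16, adjusted p = 0.0830), below the threshold in 3 of 22 alternative settings. P4HA2, the related subunit, differed by 0.19 between the lines with doxycycline (adjusted p = 0.259).

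KDM3A, a demethylase of histone lysine, read 11.94, 12.30 and 12.04 in the shRNA-labelled line with doxycycline and 11.98, 11.44 and 11.97 without it. Its control-line values were 11.37, 11.12 and 10.87 with doxycycline and 11.14, 11.68 and 11.32 without it. The lines were apart with the drug and overlapped without it. The line difference was 0.97 with doxycycline (SE 0.19, adjusted p = 0.00352) and 0.41 without it (adjusted p = 0.161). MXI1, a repressor that opposes MYC, read 8.89, 8.87 and 9.06 in the shRNA-labelled line with doxycycline and 8.46, 8.57 and 8.52 without it. For MXI1 the control line gave 7.57, 8.32 and 8.04 with doxycycline and 7.95, 7.76 and 7.82 without it. No array of the control line reached any array of the shRNA-labelled line for MXI1, and the differences were 0.96 with doxycycline (SE 0.16, adjusted p = 0.00121) and 0.67 without it (adjusted p = 0.0150).

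ADM, which encodes the vasodilator peptide adrenomedullin, ran the other way. It read 12.45, 12.36 and 12.59 in the shRNA-labelled line with doxycycline and 12.91, 12.77 and 12.97 without it. Control arrays gave 13.32, 13.19 and 13.05 with doxycycline and 13.17, 13.18 and 13.26 without it. The shRNA-labelled line was lower in both states and lowest with the drug. ADM was at 0.608 times the level of the control line with doxycycline (-0.72, SE 0.10, adjusted p = 0.000516), and it fell by 0.42 with the drug within the shRNA-labelled line (SE 0.10, adjusted p = 0.0236). That fall was lost in 6 of 23 settings. Its control-line change was -0.02.

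The remaining HIF targets gave no calls. The angiogenic factor VEGFA averaged 9.66 ± 0.33 in the shRNA-labelled line with doxycycline and 9.70 ± 0.11 without it, against 9.61 ± 0.20 with it and 10.04 ± 0.15 without it in the control line (SD, n = 3 each). Its control-line drug change was -0.43 (adjusted p = 0.0997). NDRG1, a stress-induced gene, was 0.43 higher with doxycycline and 0.46 higher without it between the lines (adjusted p = 0.104 and 0.0918). EGLN1, a prolyl hydroxylase that marks HIF alpha, differed by 0.23 with doxycycline (adjusted p = 0.113). EGLN3, a further hydroxylase, was detected on 1 of 3 shRNA-labelled arrays with doxycycline and 2 of 3 without it, against 0 of 6 control arrays, so no fold between the lines is given. Over the 11 targets detected in both lines the median line difference was 0.61 with doxycycline and 0.34 without it.

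For the alpha subunits, EPAS1 (HIF-2 alpha) read 13.23, 13.32 and 13.33 in the shRNA-labelled line with doxycycline and 13.22, 13.13 and 13.13 without it. In the control line it read 12.93, 12.76 and 12.91 with doxycycline and 12.92, 12.91 and 13.06 without it. The lines did not overlap in either state. EPAS1 was 1.35-fold higher in the shRNA-labelled line with doxycycline (0.43, SE 0.09, adjusted p = 0.00508), a call lost under median scaling, and the difference was 0.20 without it (adjusted p = 0.154). HIF1A averaged 9.91 ± 0.19 on the shRNA-labelled arrays with doxycycline, against 10.21 ± 0.20 on the control arrays with it (SD, n = 3 each). Its difference was -0.30 with doxycycline and -0.28 without it (adjusted p = 0.128 and 0.161).

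Without doxycycline fewer genes passed. Of the 35 members, 7 were higher in the shRNA-labelled line and 0 were lower, against 7.46% and 8.87% of all genes. They were HK1, HK2, ALDOC, PDK1, ANKRD37, BNIP3 and MXI1. The median difference was 0.11 for the glycolytic enzymes and 0.38 for the HIF targets, and all 3 arrays lay above in 11 members (EGLN3 among them) and below in 3, against 16.7% and 18.6% of all genes. Over the 11 HIF targets detected in both lines the median was 0.34. The comparisons with and without doxycycline share no array. In 20 of the 35 members the line difference was above 0 in both and in 5 below 0 in both, against 34.0% and 34.9% of all genes, and 6 were called higher in both, against 4.41%. EGLN3, kept through shRNA-labelled arrays alone and undetected on every control array, is among the 20 and among the 12 targets correlated next. Across genes the line differences with and without the drug correlated at 0.83 over the 12 HIF targets, 0.05 over the 16 enzymes and 0.66 over all genes, and genes are not independent replicates.

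Doxycycline responses were counted in the same way. In the shRNA-labelled line 2 members rose (PFKP and ENO2) and 2 fell (HK1 and ADM). That was 5.71% each way, close to the 6.49% and 5.01% of all genes. Of the same genes 1 rose in the control line (ALDOC) and 1 fell (ANKRD37), 2.86% each way, against 7.88% and 8.11% of all genes. Leaving out the second shRNA-labelled array with doxycycline, or the third one without it, left 0 of the 4 calls in the shRNA-labelled line. The difference of the responses passed for 0 of 35 members by limma at the adjusted threshold, for 10 at an unadjusted p under 0.05, and for up to 2 in alternative settings, against 0.844% of all genes adjusted and 15.9% unadjusted. Of the 11 HIF targets detected in both lines, 7 had a change above 0 in the shRNA-labelled line, against 47.3% of all genes, and 1 had one in the control line, against 49.2%. Over all 12 measured targets the median change was 0.05 in the shRNA-labelled line, against -0.25 in the control line, and the median difference of responses was 0.30. Without the third untreated shRNA-labelled array the first of these medians was -0.0056, and without the second untreated control array the second was -0.13 and the difference 0.26.

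**Figure D4:**
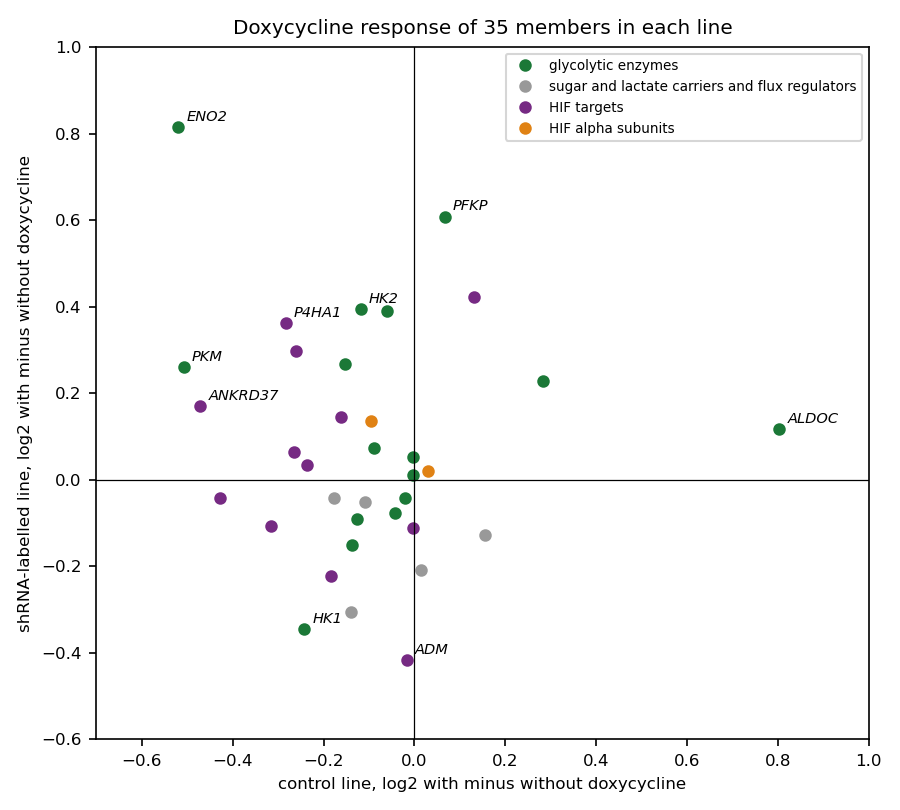
Doxycycline response of the 35 members, as log2 with minus without the drug, in the shRNA-labelled line (vertical) against the control line (horizontal), coloured by group, with 9 genes named. Of the 11 HIF targets detected in both lines, 10 lie left of the vertical zero line, and EGLN3, not detected on any control array, is drawn at its fitted value. ENO2 lies at the top left and ALDOC at the far right.

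Arrays also differed within groups. The median of each array's deviations from the gene means, over the HIF targets, was 0.24 to 0.30 in the shRNA-labelled line with doxycycline and 0.10 to 0.18 without it, against -0.32 to -0.23 in the control line with doxycycline. For the untreated control arrays it was -0.18, 0.07 and -0.25, so the second array stood apart. EGLN3, kept through shRNA-labelled arrays alone, is among the targets in all HIF medians of this paragraph and among the members of the component below. Without that array the median HIF difference of the untreated lines was 0.46, against 0.38 with all arrays, while the median HIF drug change of the control line was -0.13, against -0.25. Members called between the lines with doxycycline then numbered 18, against 16. A first principal component over the members held 60.4% of the variance and placed all 6 shRNA-labelled arrays above 0 and all 6 control arrays below 0. The same component over all genes is not given here, so this split cannot be called particular to the members.

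Other genes of sugar metabolism and of the HIF pathway were read from further lists. Of 27 measured sugar enzymes and carriers, with doxycycline 2 were higher and 6 lower in the shRNA-labelled line, and without it 3 were higher (PDK3, PGM1 and MPC1) and 1 lower (PCK2). As shares these were 7.41% and 22.2% with doxycycline, against 10.9% and 11.8% of all genes. Without it they were 11.1% and 3.70%, against 7.46% and 8.87%. Among the 6 lower genes, TALDO1 averaged 13.86 with doxycycline in the shRNA-labelled line, against 14.28 in the control line, and FBP1 7.29 against 7.94. BPGM, MPC2 and PDK4 were lower too. The calls of BPGM, FBP1 and MPC2 were lost in 18, 10 and 12 of 23 alternative settings, and that of PDK4 in 8 of 22. PDK4 was detected on 3 of 3 control arrays with doxycycline and on 1 of 3 shRNA-labelled arrays with it. Without the drug it was detected on 0 arrays of either line. It thus passed the detection filter mainly through the group where it was high, and it counts among the 6 lower genes. PDK3, a pyruvate dehydrogenase kinase, was 0.95 higher with doxycycline and 1.08 higher without it (adjusted p = 0.000109 and 9.33e-05). GBE1, the glycogen branching enzyme, was 0.85 higher with doxycycline (adjusted p = 0.00156) and fell by 0.66 with the drug in the control line. These and the further genes named from the line comparisons were chosen after their values were seen. In the shRNA-labelled line 1 of the 27 rose with doxycycline, the hexokinase-like HKDC1 (0.50), and 1 fell, the bisphosphoglycerate mutase BPGM (-0.45), calls that held in 17 and 14 of 23 settings. The fructose carrier SLC2A5 rose by 0.85 with doxycycline in the control line and PDK4 was at least 1.25-fold higher, while GBE1 and BPGM (-0.37) fell, the BPGM call holding in 8 of 23 settings. Of all genes 6.49% rose and 5.01% fell in the shRNA-labelled line, against 7.88% and 8.11% in the control line.

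Of 41 measured HIF pathway genes outside the listed members, 8 were higher and 2 lower in the shRNA-labelled line with doxycycline, and 5 were higher and 5 lower without it. As shares these were 19.5% and 4.88%, against 10.9% and 11.8% of all genes, and without the drug 12.2% each way, against 7.46% and 8.87%. With doxycycline 6 rose and 4 fell in the shRNA-labelled line, or 14.6% and 9.76%, against 6.49% and 5.01% of all genes. The control line had 5 that rose and 5 that fell, 12.2% each way, against 7.88% and 8.11%. PLOD2, the lysyl hydroxylase of collagen, read 13.47, 13.48 and 13.60 in the shRNA-labelled line with doxycycline and 13.48, 13.63 and 13.34 without it. The control line gave 12.08, 12.31 and 12.35 with doxycycline and 12.88, 13.12 and 12.92 without it. The lines were apart in both states, by 1.26 with doxycycline (adjusted p = 1.86e-05) and 0.51 without it (adjusted p = 0.0113), and PLOD2 fell by 0.72 with the drug in the control line. CA12, a carbonic anhydrase, rose with doxycycline by 1.62 in the shRNA-labelled line. Its control-line rise was 0.76, a call that held in 10 of 23 settings. The lower genes were STC1 (-3.65) and HMOX1 (-1.40), the heme oxygenase, both in the shRNA-labelled line with doxycycline. On those arrays STC1 read 6.91, 6.09 and 7.75 and was detected on 2 of 3, so its sizes rest in part on undetected signal.

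DDIT4, an inhibitor of mTORC1 signalling, gave the largest difference of responses among these 41 genes. It read 12.47, 12.38 and 12.57 in the shRNA-labelled line with doxycycline and 12.71, 12.24 and 12.63 without it, against 10.43, 10.56 and 10.27 in the control line with doxycycline and 13.04, 13.28 and 13.08 without it. The control arrays with the drug stood alone at the bottom. The responses differed by 2.66 (SE 0.19, adjusted p = 0.000159). For the secreted glycoprotein STC1 they differed by -2.40 (SE 0.47, adjusted p = 0.0448), a call lost in 12 of 21 alternative settings. EDN1, the endothelin, rose by 1.36 with the drug in the shRNA-labelled line, and its control-line rise was 0.82. RORA, a nuclear receptor, fell by 1.07 with the drug in the shRNA-labelled line, against a control-line fall of 0.85, and STC2 fell by 0.68 against 1.05.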

How the data were processed

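RNA of 12 Caco-2 samples in 4 groups of 3 was measured on Illumina bead arrays. The deposited table gives the bead intensity of each probe, averaged over beads and not log-transformed, per the file headers. It pairs each intensity with a detection p-value, per the file headers. The authors' deposited value table is on a scale close to log2, with background step and transformation not given in the sources used here. It served as an alternative. GenomeStudio and lumi are named in the submitters' processing notes, with no role.

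Intensities were corrected with limma 3.58.1 in R 4.3.3 (normexp, negative controls inferred from detection p-values, offset 16), taken to log2 and quantile-normalized. Of 47314 probes, 30109 had 1 gene symbol in the platform annotation. The 22417 probes with a detection p-value under 0.05 on at least 3 of 12 arrays were kept, the brightest standing for its gene. The 4 group means were fitted over all 12 arrays with lmFit and eBayes, and 5 contrasts were tested, two-sided, with Benjamini-Hochberg adjustment over 12566 genes and a threshold of 0.05. Differences of single further probes come from the same fit over all kept probes. A gene undetected on every array of a group has a fold bound only, its brighter group's mean set against, per array, its own dim signal or the lowest detected one if that is higher. Of these steps only the group fit was tested on simulated data, as log2 values with set changes between the lines with doxycycline. The number of arrays limits the precision.

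The members and the lists were chosen with earlier results of these data known. Members past the threshold in any contrast are named with every array, the others by group means or differences, and from the further lists up to 4 genes with the smallest adjusted p per drug response. Other genes of those lists were named after their values were seen. Whether the replicate numbers pair the arrays was not settled. Correlations of same-numbered deviations ran from -0.19 to 0.23, with 6 of 18 above 0.1. By the same check 8 arrays were closest to arrays of their own number. The main fit left the replicate number out. The settings varied were the background correction, the scaling (median), the value table (the authors'), the detection filter, the probes averaged per gene, array weights, a block on the replicate number, a trended variance prior, fits to only the groups compared, and each array left out. They were run for the further named genes too, a choice made after the data were seen. Promoter windows were searched with Python 3.11.15, and figures drawn with matplotlib 3.10.9.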

Additional observations from a re-analysis of the deposited data

Results flagged for a closer look

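The doxycycline response of DDIT4 differed between the lines. The shRNA-labelled line's response lay 2.66 (log2) above the control line's (SE 0.19, limma adjusted p = 0.000159), and the difference passed the test in 22 of 22 alternative settings. For STC1 the response was lower by 2.40 (-2.40, SE 0.47, adjusted p = 0.0448) in the shRNA-labelled line. That size rests in part on undetected signal, as STC1 was detected on 2 of 3 shRNA-labelled arrays with doxycycline.

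For PCK2, the mitochondrial phosphoenolpyruvate carboxykinase, all 3 arrays with doxycycline lay above all 3 without it in the shRNA-labelled line and below them in the control line. The gap between the responses was 0.59 (SE 0.17), and the test of the difference gave an adjusted p of 0.122. INHA, the inhibin alpha subunit, was not above background on the 3 shRNA-labelled arrays without doxycycline, so its response in that line has only a bound, at least 1.25-fold higher with the drug. In the control line all 3 arrays with doxycycline lay below all 3 without it. The fitted difference of the INHA responses, 1.09 (adjusted p = 0.0895), rests on that undetected signal and is no measured size.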

How the results depend on the processing

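With doxycycline, the count of members called between the lines was 16 and ranged from 11 (10 higher and 1 lower, median scaling) to 18. ADM, ANKRD37, BNIP3, BNIP3L, ENO2, GPI, HK2, KDM3A, MXI1 and P4HA1 passed in all 23 alternatives. The HIF target median of 0.52 was 0.61 over genes detected on all 12 arrays, and the enzyme median of 0.30 was 0.40 with all kept probes averaged. Without the drug, the 7 line calls became 11 with no background correction, 3 with median scaling and 12 with array weights. There the HIF median of 0.38 was 0.22 with no background correction and the enzyme median of 0.11 was 0.25 with median scaling. In the shRNA-labelled line the 4 drug calls became 0 with median scaling and 2 with the groups alone. The 2 drug calls in the control line became 5 with no background correction, 4 with array weights and 1 with median scaling, no detection filter or the groups alone, and the enzyme median of -0.07 was 0.028 with median scaling. For the difference of responses, the 0 calls became 1 with a normexp offset of 50, the authors' values or genes detected on all 12 arrays, and 2 with no background correction, array weights or trended variance. Its enzyme median of 0.04 was -0.11 with median scaling, 0.13 with all kept probes averaged and 0.13 with array weights. With the replicate number as a block the counts were 3, 3, 15, 8 and 1 for the drug in the shRNA-labelled line, the drug in the control line, the lines with and without the drug, and the difference of responses. The cause of these moves was not tested.

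Leaving out 1 array, the counts ranged from 0 to 5 for the drug in the shRNA-labelled line. They were 0 without the second array with the drug or the third without it, 1 without the first array without the drug and 2 without the first with it. For the drug in the control line they ranged from 1 to 4. They were 4 without the third control array lacking the drug, 2 without the first or second shRNA-labelled array with the drug, and 1 without any other array. Between the lines they ranged from 14 to 18 with the drug and from 3 to 8 without it, the 3 coming without the first control array lacking the drug. For the difference they ranged from 0 to 1, the 1 coming without the third control array lacking the drug. The enzyme medians ranged from 0.048 to 0.21, -0.16 to -0.031, 0.24 to 0.40, 0.00086 to 0.21 and 0.027 to 0.17 over these comparisons in the same order. The HIF medians ranged from -0.0056 to 0.12, -0.29 to -0.13, 0.49 to 0.62, 0.30 to 0.46 and 0.25 to 0.34. HIF medians in this section include EGLN3 wherever it passed the detection filter, which it did through shRNA-labelled arrays alone. No result changed direction while past its threshold in any alternative run. Over single genes and alternatives, 5353 values kept their direction and their side of the threshold, 309 lost a call and 127 gained one. Signal over background limits PDK1 and EGLN3, detected on 8 and 3 of the 12 arrays.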
